A study of Mus musculus with 12 samples.

Results

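Antiviral interferon-stimulated genes were followed in peritoneal macrophages of female wild-type C57Bl/6 mice and of mice without Nfkbiz, the gene of IκBζ. The group was a list of 48 gene symbols, of which 43 were measured among 19938 genes. It was chosen with earlier results of these data known. A gene counted as measured where a probe set carried its symbol and no other, and the probe set with the highest mean stood for it. Oas1g, Ifi204, Ifi47 and Isg15 lie on probe sets that share several symbols and Ifi44 has no probe set with its symbol alone, so these 5 members have no value here. The 43 measured members fall into 12 roles, from RNA-binding and RNA-degrading proteins to sensors, GTPases and the ISG15 system.

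The cells were washed from the peritoneal cavity, left to settle in culture for 2 h, and then kept untreated or given lipopolysaccharide (LPS), a bacterial cell wall component, at 1 µg/ml for 4 h. The 4 groups were wild type untreated, wild type with LPS, Nfkbiz-/- untreated and Nfkbiz-/- with LPS, each with 3 Affymetrix arrays hybridised to labelled total RNA. The knockout is given by its genotype alone, and the labels do not say which part of the gene is missing, whether the controls were littermates or whether the 3 arrays of a group came from separate mice. P-values therefore measure the spread between these arrays, which may in part be technical. Values are RMA intensities on a linear scale, differences are on the log2 scale, and the number of arrays limits their precision.

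Type I interferons such as interferon-β are released when a cell senses microbes, and they act back on the same and neighbouring cells through the receptor subunits IFNAR1 and IFNAR2. The kinases JAK1 and TYK2 then activate STAT proteins, among them STAT2, which acts with IRF9 in the complex ISGF3 on the interferon-stimulated response element of the target genes. In macrophages LPS starts this loop through TLR4, the adaptor TRIF and the transcription factor IRF3, which switch on Ifnb1. IκBζ is a nuclear protein of the IκB family that LPS induces and that acts with NF-κB on a subset of its target genes.

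Letters of the response element stand in the sequence before the start of several members. A window from 250 bases before to 50 bases after the annotated start, from RefSeq on build GRCm38.p6, was at hand for 36 of the 48 members. The word GAAANNGAAA, searched on both strands with overlaps allowed, was found in 15 of those 36 (41.7%) and in 1079 of all 27025 genes with a window (3.99%). The 200 bases before the start are shown for Rsad2, Ifit1, Ifit3 and Ifi205, the members with the largest LPS effects in wild type among those with the word before the start, and for Ifit3b, added after its values were seen because it alone was called between genotypes. Capitals mark the word or its reverse complement, the strand is that of the gene and each line ends at the last base before the start.
Rsad2, chr12:26456453-26456652, minus strand: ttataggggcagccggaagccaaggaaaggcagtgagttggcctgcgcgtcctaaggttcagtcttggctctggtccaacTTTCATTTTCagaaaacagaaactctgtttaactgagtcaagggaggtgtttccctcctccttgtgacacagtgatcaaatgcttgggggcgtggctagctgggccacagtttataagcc
Ifit1, chr19:34640689-34640888, plus strand: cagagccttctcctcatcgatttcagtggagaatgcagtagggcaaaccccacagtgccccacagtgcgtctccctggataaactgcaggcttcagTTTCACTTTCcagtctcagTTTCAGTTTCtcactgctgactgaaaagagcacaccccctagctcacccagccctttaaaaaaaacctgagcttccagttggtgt
Ifit3, chr19:34583329-34583528, plus strand: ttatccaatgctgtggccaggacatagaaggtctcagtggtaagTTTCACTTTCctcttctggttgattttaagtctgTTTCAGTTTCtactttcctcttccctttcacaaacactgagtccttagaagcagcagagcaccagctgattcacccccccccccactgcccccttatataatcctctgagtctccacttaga
Ifi205, chr1:174031756-174031955, minus strand: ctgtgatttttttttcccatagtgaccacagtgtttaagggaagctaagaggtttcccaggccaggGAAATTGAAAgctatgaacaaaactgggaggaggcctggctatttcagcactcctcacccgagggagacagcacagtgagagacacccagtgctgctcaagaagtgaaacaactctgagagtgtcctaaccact
Ifit3b, chr19:34607757-34607956, plus strand: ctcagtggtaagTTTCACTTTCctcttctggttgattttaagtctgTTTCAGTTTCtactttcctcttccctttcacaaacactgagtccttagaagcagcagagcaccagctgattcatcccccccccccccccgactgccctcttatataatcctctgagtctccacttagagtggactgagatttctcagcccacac
In Rsad2, Ifit1, Ifit3 and Ifit3b the word reads in reverse, and in Ifi205 forward. Between the word and the start lie 110 bases in Rsad2 and 124 in Ifi205. The windows of Ifit3 and Ifit3b, laid side by side without gaps at a shift of 32 bases, were identical at 201 of 268 bases (75%), with a longest shared run of 169 bases, and these neighbouring genes on chromosome 19 code for near-identical proteins. Where the transcripts are alike too, their probe sets may report each other's transcript, which was not tested. The same holds within the Oas1 and Ifi200 families. Ifit3 measured 1992 on wild-type LPS replicate 1 and 2131 on untreated knockout replicate 3, where Ifit3b measured 43.7 and 56.1. On the untreated wild-type arrays Ifit3b measured 25.7 to 32.9.

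A second word, TTCNNNGAA, of the gamma-activated site, was found in 7 of the 36 windows (19.4%) against 9.55% of all genes. The κB-like word GGGANNTTCC was found in 3 of the 36, those of Ifi209, Ifit2 and Isg20 (8.33%), against 1.63% of all genes. The first word was present in the windows of 13 measured members, whose LPS effects in wild type ranged from 0.89 to 4.83 with a median of 1.69, and it was not among the letters of 19 others, whose effects ranged from 0.29 to 4.11 with a median of 1.56. In the knockout the medians were 2.19 and 1.93. A match is a description of letters and not evidence of binding.

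The knockout and its controls differed in Nfkbiz itself within each treatment. Its intensity was 463, 431 and 406 in untreated wild type and 267, 286 and 274 in untreated knockout, and with LPS 3371, 3786 and 3079 in wild type and 1568, 1335 and 1634 in the knockout. The knockout arrays were lower without overlap in both conditions but kept a signal that rose with LPS, and the labels do not place the probes relative to the missing part. Macrophage markers, among them Adgre1 (F4/80), Csf1r, Lyz2 and Gata6, the transcription factor of resident peritoneal macrophages, were present on all 12 arrays, and the summed intensity of the 9 markers, in which Lyz2 weighs most, ranged from 43332 to 56405. Single markers varied more. Timd4, a receptor of long-resident peritoneal macrophages, measured 289.6, 163 and 175 in untreated and 326, 384 and 372 in LPS-treated wild type and 313, 1646 and 407 and 719, 2608 and 1156 in the knockout, highest on replicate 2 of both knockout groups. Gata6 was lowest on LPS-treated knockout replicate 2 (1570, 726 and 1240 over the 3 arrays). With LPS 1 of the 9 markers was higher in the knockout, Mertk (1.29, SE 0.11, adjusted p = 0.000103), and 1 was lower, Adgre1 (-0.35, SE 0.08, adjusted p = 0.0245). Of all 19938 genes, 653 were called higher (3.28%) and 970 lower. Mertk alone of the 9 was also called for a difference of LPS effects between genotypes (1.27), against 0.301% of all genes called higher. Its mean was 2872 untreated and 1793 with LPS in wild type, and 2909 and 4351 in the knockout. Within groups, arrays correlated at 0.984 to 0.994 over all 35556 probe sets. In bulk RNA of this kind, fewer responding cells and less RNA per cell cannot be told apart.

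Before any group is compared, the spread within groups has to be described, because the antiviral genes moved together from array to array. The mean log2 intensity of the 43 members was 9.10, 8.99 and 8.51 on the untreated wild-type arrays and 11.12, 11.85 and 9.73 on the wild-type arrays with LPS. In the knockout it was 9.28, 8.99 and 10.45 untreated and 11.92, 11.95 and 12.13 with LPS. The 3 LPS-treated knockout arrays thus lay close together, while wild-type LPS replicate 3 was low and untreated knockout replicate 3 was high. The median SD of a member (log2) was 0.31 in untreated wild type, 0.96 in wild type with LPS, 0.69 in untreated knockout and 0.13 in knockout with LPS. Over all genes the same medians were 0.090, 0.099, 0.114 and 0.118. The fit used below pools the variance of a gene over the 4 groups. Each pairwise difference of a gene therefore has the same SE, which does not show the unlike spread of the groups compared.

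Wild-type LPS replicate 2 had the highest value of its group for 43 of 43 members, and replicate 3 the lowest for 42, the exception being Ifit3b. Untreated knockout replicate 3 was above the other untreated knockout arrays and above every untreated wild-type array for 43 of 43 members, and it was also above wild-type LPS replicate 3 for 35. Against the LPS-treated knockout arrays, wild-type LPS replicate 3 was below all 3 for 43 members, replicate 1 for 42 (Oas1b lay among them), and replicate 2 for 16, with 25 members among them and Ddx58 and Oas1b above. Across the 43 members, the deviation of wild-type LPS replicate 3 from its group and that of untreated knockout replicate 3 from its own were correlated at r = -0.74 (Spearman -0.63), against -0.23 over all genes. The deviation of untreated knockout replicate 3 also followed the LPS effect in wild type, at r = 0.69 (Spearman 0.64) over the members and 0.10 over all genes. The deviation of wild-type LPS replicate 3 ran against the LPS effect in the knockout, at r = -0.55 (Spearman -0.46) over the members and -0.48 over all genes. These are correlations across genes, which are not independent replicates.

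Markers of other peritoneal cells moved with some of these arrays. The summed intensity of 5 mast cell markers (Cpa3, Mcpt4, Tpsb2, Cma1 and Kit) was 2653 on untreated knockout replicate 3 against 1328 and 841 on replicates 1 and 2, and 679 to 875 on untreated wild type. With LPS the same sum was 1241, 567 and 2279 in the knockout and 579 to 891 in wild type, so replicate 3 was the highest in both knockout groups. The sum of 4 conventional dendritic cell markers was 1580 on untreated wild-type replicate 3 against 592 and 599.5 on replicates 1 and 2, and 887 on wild-type LPS replicate 3 against 496 and 464. It was 428 to 482 on the 6 knockout arrays. Cd209a alone made this rise, at 187, 261 and 1228 in untreated and 154, 118 and 508 in LPS-treated wild type. The other 3 markers, Flt3, Zbtb46 and Xcr1, summed to 405, 338 and 352 in untreated wild type and to 342, 346 and 379 with LPS, against 344 to 376 in LPS-treated knockout. The part of these cells in the antiviral levels was not tested. The sum of 5 plasmacytoid dendritic cell markers, 1501 to 2145 over all arrays, and that of 5 T and NK cell markers, 300.3 to 401, spread less. That of 5 measured B cell markers ranged from 605 to 1594, highest on untreated wild-type replicate 1 and lowest of their groups on replicate 2 in the untreated (759) and LPS-treated (605) knockout.

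**Figure D1:**
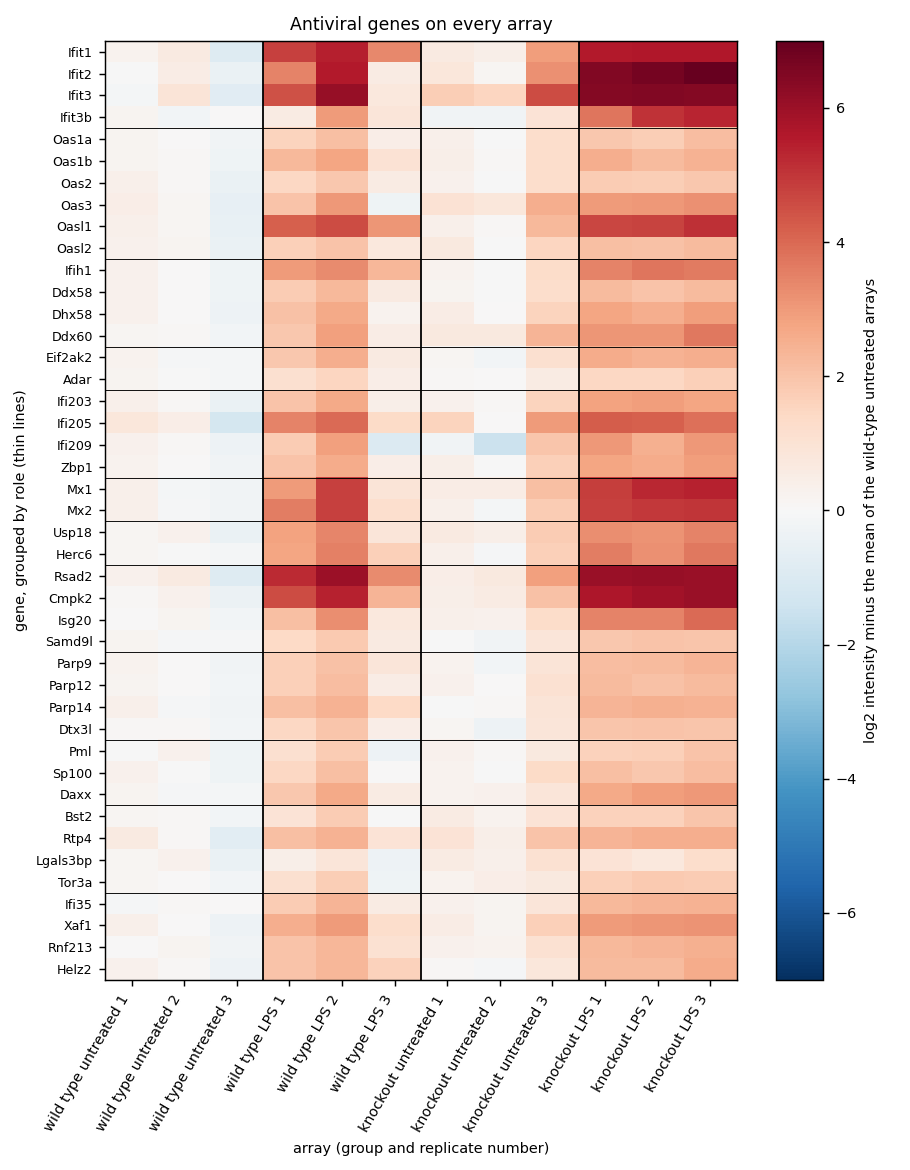
Each row is a measured antiviral gene, grouped by role, and each column an array; colour is the log2 intensity minus the mean of the wild-type untreated arrays. The LPS-treated knockout arrays are alike, wild-type LPS replicate 3 is paler than replicates 1 and 2, and untreated knockout replicate 3 is above every untreated wild-type array for 43 of 43 members.

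Most of the antiviral genes rose with LPS in wild-type macrophages. Of 43 members, 35 were higher after 4 h of LPS and 0 were lower at an adjusted p under 0.05 (limma, Benjamini-Hochberg over 19938 genes), a share of 81.4% against 9.53% of all genes called higher. At an unadjusted p under 0.05, 40 were higher and 0 lower, against 15.5% of all genes higher. Because the list was chosen with earlier results of these data known, its shares here and below are descriptions and not independent support. The median log2 difference of the members was 1.70, against 0.04 over all genes. Effects were of at least 8-fold for 7 members, between 4- and 8-fold for 8, between 2- and 4-fold for 24 and smaller for 4. The largest belonged to Rsad2 (28.4-fold), Ifit1 (22.8-fold), Cmpk2 (17.3-fold), Oasl1 (15.5-fold) and Ifit3 (13.6-fold). For 34 members every LPS array was above every untreated one (79.1%, against 23.2% of all genes). The 8 members that did not pass the test were Ifit3b, Oas3, Ifi209, Pml, Sp100, Bst2, Lgals3bp and Tor3a.

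In knockout macrophages 41 of 43 members were higher with LPS (95.3%), against 21.9% of all genes, and 0 were lower. At an unadjusted p under 0.05, 42 were higher and 0 lower, against 27.8% of all genes higher. Their median log2 difference was 2.06, against 0.07 over all genes. Effects reached at least 8-fold for 10 members, between 4- and 8-fold for 14, between 2- and 4-fold for 18 and less for 1. Ifit2 (42.1-fold), Cmpk2 (29-fold), Rsad2 (26.5-fold), Ifit3b (23.5-fold) and Ifit1 (19.2-fold) led. For 42 members the arrays did not overlap (97.7%, against 28.3% of all genes), Lgals3bp being the exception. Oas3 and Lgals3bp did not pass the test. Same-numbered knockout arrays deviated together over all genes, but over the members alone the correlations were 0.237, 0.179 and -0.043. With the replicate number as a block on the 6 knockout arrays, 43 of 43 members were higher (17.6% of all genes). These included Oas3 (1.64, adjusted p = 0.0016) and Lgals3bp (0.29, adjusted p = 0.0374). That setting was added after seeing the data. The same 6 arrays fitted without the block gave 42, and the block over all arrays gave 41. The rise to 43 therefore cannot be credited to the block alone.

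The number of wild-type calls changed when single arrays were left out. Each such fit also has fewer arrays and so less precision, and the part of this in the lost calls was not tested. Without wild-type LPS replicate 1, wild-type LPS replicate 2 or untreated wild-type replicate 3, 25 members were called in each fit, and without wild-type LPS replicate 3, 41 were called. The median wild-type effect was 1.63 without wild-type LPS replicate 1, against 1.70 with all arrays. In the knockout the counts ran from 34 (without untreated replicate 2) to 42. For single members, the losses of some calls are listed below. Of the others, the wild-type call held in 7 of 12 fits that left out 1 array for Dhx58. It held in 8 for Zbp1 and Ifi203 and in 9 for Oas1a, Oas2 and Dtx3l. The knockout call held in 10 of 12 for Bst2 and Pml.

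**Figure D2:**
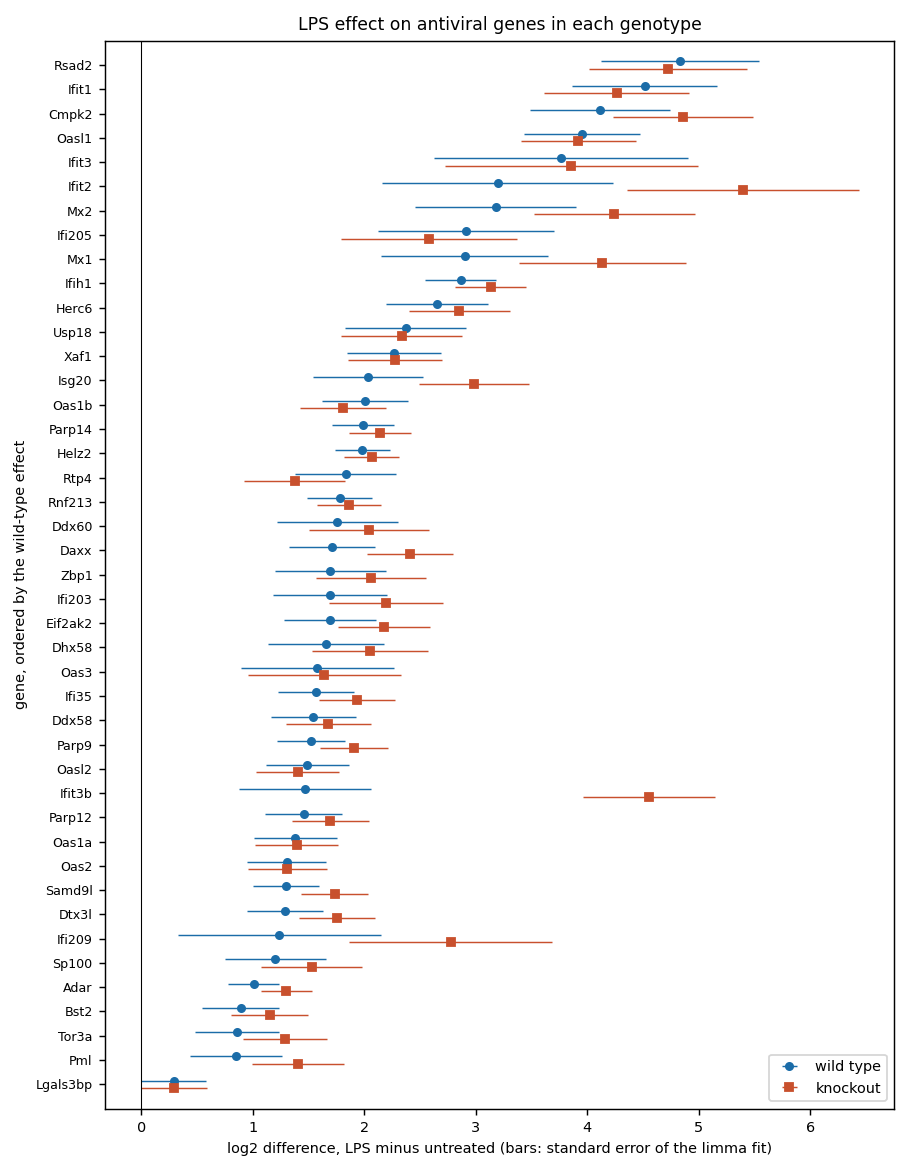
Points are log2 differences between LPS-treated and untreated arrays for each measured member, in wild type (circles) and knockout (squares), with standard errors of the limma fit as bars and 3 arrays per group. Of the 43 members, 35 passed the test in wild type and 41 in the knockout, and the points of Ifit3b lie farthest apart.

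The IFIT proteins bind viral RNA that lacks the marks of host messenger RNA and keep it from being translated. In wild type 3 of the 4 members rose with LPS and in the knockout all 4 did. Ifit1, which recognises the 5′ end of viral RNA, measured 265, 339 and 119.8 on the untreated wild-type arrays and 6018, 9492 and 2243 with LPS. Ifit1 in the knockout was at 346, 295 and 1678 untreated and 10476, 10708 and 10814 with LPS. LPS arrays were above untreated arrays in both genotypes, and all 3 LPS-treated knockout arrays lay close to their mean of 10666 ± 173 (SD, n = 3). The LPS effect was 4.51 (SE 0.65, adjusted p = 0.000288) in wild type and 4.26 (SE 0.65, adjusted p = 0.00028) in the knockout.

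Ifit2, which acts beside Ifit1 and also binds RNA, was 54.9, 78.4 and 40.2 in untreated wild type and 621, 2604 and 82.3 with LPS. Ifit2 in the knockout was 95.7, 61.4 and 519.6 untreated and 4962, 5768 and 7964 with LPS. Wild-type LPS replicate 3 had hardly left the untreated range, whereas every LPS-treated knockout array was above every wild-type one. The LPS effect was 3.20 (SE 1.04, adjusted p = 0.038) in wild type and 5.40 (SE 1.04, adjusted p = 0.00136) in the knockout. The wild-type call was lost without knockout LPS replicate 1 (3.20, adjusted p = 0.0508), knockout untreated replicate 1 (3.20, adjusted p = 0.0508), wild-type LPS replicate 1 (3.06, adjusted p = 0.106), wild-type LPS replicate 2 (2.02, adjusted p = 0.145), wild-type untreated replicate 1 (3.19, adjusted p = 0.0889), wild-type untreated replicate 2 (3.44, adjusted p = 0.0644) or wild-type untreated replicate 3 (2.96, adjusted p = 0.114). The knockout was 12-fold above wild type with LPS, which did not pass the test (log2 3.58, SE 1.04, adjusted p = 0.0568); without untreated knockout replicate 3 it did (3.58, adjusted p = 0.0421), as it did without wild-type LPS replicate 2 (4.76, adjusted p = 0.00792). Without wild-type LPS replicate 3 the difference was 2.26 (adjusted p = 0.181).

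Ifit3, which stabilises Ifit1 on RNA, was 83.3, 172 and 52.2 in untreated wild type and 1992, 6256 and 152 with LPS, so these groups overlapped. Ifit3 in the knockout was 304, 254 and 2131 untreated and 7776, 8155 and 7912 with LPS, above wild type in both conditions without overlap. Its SD in wild type with LPS, 2.75 on the log2 scale, was the largest of any member. The LPS effects were 3.77 (SE 1.14, adjusted p = 0.0275) in wild type and 3.86 (SE 1.14, adjusted p = 0.0166) in the knockout. The wild-type call was lost without wild-type LPS replicate 1 (3.42, adjusted p = 0.0945), wild-type LPS replicate 2 (2.60, adjusted p = 0.111), wild-type untreated replicate 1 (3.71, adjusted p = 0.073) or wild-type untreated replicate 3 (3.37, adjusted p = 0.0979). In the knockout it was lost without knockout untreated replicate 1 (3.43, adjusted p = 0.058) or knockout untreated replicate 2 (3.30, adjusted p = 0.0601).

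Ifit3b, the near-identical neighbour of Ifit3, was the only member called between genotypes. It measured 32.9, 25.7 and 29.2 in untreated wild type and 24.8, 24.3 and 56.1 in untreated knockout. With LPS it was 43.7, 232 and 51.4 in wild type and 386, 966 and 1178 in the knockout. All LPS-treated knockout arrays were above all wild-type ones. The probe set is dim: every untreated value and those of 2 wild-type LPS arrays lay below their arrays' medians over all probe sets, and a fold against such values has little precision. Mean intensity with LPS was 109 ± 107 (SD, n = 3) in wild type and 844 ± 410.3 (SD, n = 3) in the knockout. The knockout was 9.45-fold higher with LPS, a log2 difference of 3.24 (SE 0.59, adjusted p = 0.0074), and the call held in 12 of 12 fits that each left out 1 array. The difference was 4.00 (adjusted p = 0.000558) without wild-type LPS replicate 2 and 2.92 (adjusted p = 0.0367) without replicate 3. The call was lost, with 0 members called, when only the 6 LPS arrays were fitted. The LPS effect was 1.47 (SE 0.59, adjusted p = 0.0894) in wild type and 4.56 (SE 0.59, adjusted p = 8.52e-05) in the knockout, and the difference of these effects, 3.09 (SE 0.84, adjusted p = 0.134), did not pass the test with all arrays and did without wild-type LPS replicate 2 (3.85, adjusted p = 0.0121).

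**Figure D3:**
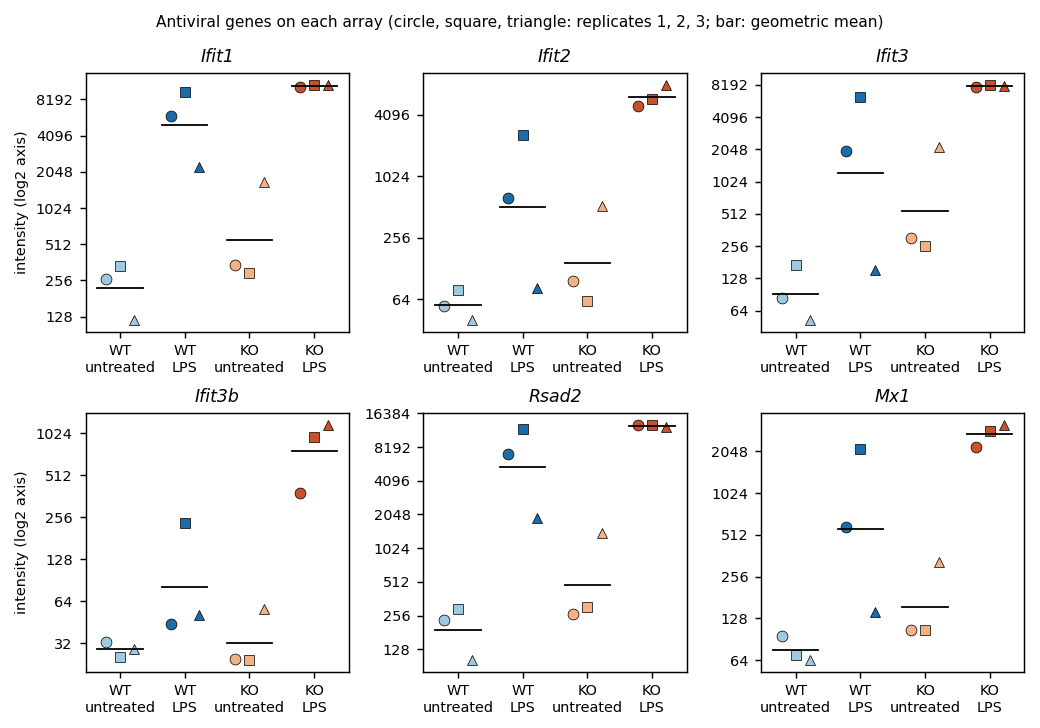
Intensity on each array, on a log2 axis that differs between panels, for Ifit1, Ifit2, Ifit3, Ifit3b, Rsad2 and Mx1 in wild type (WT) and knockout (KO); symbols are replicates 1 (circle), 2 (square) and 3 (triangle) and bars geometric means. For each of these genes all 3 LPS-treated knockout arrays lie above all 3 wild-type ones, and the triangle of untreated knockout lies above the untreated wild-type arrays.

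Among effectors that act on nucleotides and RNA, all 4 members rose with LPS in both genotypes. Rsad2 encodes viperin, which makes a chain-terminating nucleotide. Rsad2 was 233, 294 and 103 in untreated wild type and 7148, 11947 and 1895 with LPS, and in the knockout 262, 305 and 1402 untreated and 12842, 12913 and 12498 with LPS. The treatments did not overlap in either genotype, and LPS raised it by 4.83 (SE 0.71, adjusted p = 0.000311) in wild type and 4.72 (SE 0.71, adjusted p = 0.000238) in the knockout. Cmpk2, a mitochondrial nucleotide kinase whose gene neighbours Rsad2, was 192, 219.7 and 138 in untreated wild type and 4222, 7519 and 949 with LPS, and 239, 263 and 749 untreated and 9096, 10426 and 12083 with LPS in the knockout. Cmpk2 was higher in the knockout on every array in both conditions, but the differences did not pass the test (1.01, SE 0.63, adjusted p = 0.689 untreated and 1.75, SE 0.63, adjusted p = 0.117 with LPS). Isg20, an exonuclease, rose 4.1-fold in wild type and 7.92-fold in the knockout, and Samd9l 2.46- and 3.32-fold.

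The OAS enzymes make 2′-5′ oligoadenylates from ATP on double-stranded RNA and so activate RNase L, and the OAS-like proteins are their relatives. Of 6 measured members 5 rose with LPS in each genotype. Oasl1, which limits translation of Irf7 in mice, measured 407, 352 and 224 in untreated wild type and 5776, 7671 and 2692 with LPS. Oasl1 was 414, 339 and 1539 in untreated knockout and 8008, 8376 and 11136 with LPS. Its arrays separated by treatment in both genotypes, with effects of 3.95 (SE 0.52, adjusted p = 0.000139) and 3.92 (SE 0.52, adjusted p = 9.4e-05). Oas3, the largest of the family, was 526, 415 and 258 in untreated wild type and 1544, 3096 and 314 with LPS, and 784, 659 and 2213 untreated and 3067, 3160 and 3577 with LPS in the knockout. Its wild-type arrays overlapped and its untreated knockout arrays were above all untreated wild-type arrays. Its LPS effects were 1.58 (SE 0.69, adjusted p = 0.114) and 1.64 (SE 0.69, adjusted p = 0.0699). Oas1a, Oas1b, Oas2 and Oasl2 rose by 1.30 to 2.01 in wild type and 1.31 to 1.80 in the knockout.

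The cytosolic RNA helicases detect viral RNA and signal through MAVS to more interferon. All 4 members rose in both genotypes. Ifih1, which encodes MDA5, the sensor of long double-stranded RNA, was 788, 647 and 522 in untreated wild type and 5081, 6368 and 3165 with LPS. Ifih1 in the knockout was 758, 636 and 1571 untreated and 7269, 8742 and 8034 with LPS. The groups separated by treatment, with effects of 2.86 (SE 0.32, adjusted p = 4.2e-05) and 3.13 (SE 0.32, adjusted p = 1.42e-05). Ddx60, a helicase linked to the same pathway, was 129, 127 and 102 untreated and 434, 872 and 170.4 with LPS in wild type and 189, 193 and 614 untreated and 1003, 1002 and 1553 with LPS in the knockout. Every knockout array of Ddx60 was above every wild-type array of the same treatment, though the differences of 1.25 (SE 0.54, adjusted p = 0.555) untreated and 1.53 (SE 0.54, adjusted p = 0.113) with LPS did not pass the test. Its wild-type LPS effect of 1.76 (SE 0.54, adjusted p = 0.03) was lost without wild-type LPS replicate 1 (1.70, adjusted p = 0.0855), wild-type LPS replicate 2 (1.20, adjusted p = 0.121), wild-type untreated replicate 1 (1.82, adjusted p = 0.0651), wild-type untreated replicate 2 (1.81, adjusted p = 0.0654) or wild-type untreated replicate 3 (1.65, adjusted p = 0.093). Ddx58, which encodes RIG-I, rose 2.91-fold in wild type and 3.2-fold in the knockout, and Dhx58, which encodes the regulator LGP2, 3.15- and 4.14-fold. The wild-type call of Dhx58 held in 7 of 12 fits that left out 1 array.

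Eif2ak2 encodes PKR, the kinase that stops translation on double-stranded RNA. Eif2ak2 measured 451, 350 and 340.5 in untreated wild type and 1398, 2192 and 591 with LPS, and 412, 328 and 810.3 untreated and 2276, 2013 and 2201 with LPS in the knockout. Treatment separated its arrays in both genotypes, with effects of 1.69 (SE 0.41, adjusted p = 0.00886) and 2.18 (SE 0.41, adjusted p = 0.00123), and genotypes overlapped in both conditions. Adar, the adenosine deaminase that edits double-stranded RNA, rose 2.01-fold and 2.46-fold.

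Ifi203, Ifi205 and Ifi209 belong to the mouse Ifi200 family of DNA-binding proteins, and Zbp1 senses nucleic acid in the Z form and can start necroptosis. In wild type 3 of these 4 rose with LPS and in the knockout all 4 did. Ifi205 was 851, 683 and 210.1 in untreated wild type and 5495, 7663 and 1239 with LPS, and 1451, 497 and 3846 untreated and 9466, 8914 and 7046 with LPS in the knockout. Its genotypes overlapped, and its LPS effects were 2.91 (SE 0.79, adjusted p = 0.016) and 2.58 (SE 0.79, adjusted p = 0.0197). The wild-type call was lost without wild-type LPS replicate 1 (2.63, adjusted p = 0.0638), wild-type LPS replicate 2 (2.40, adjusted p = 0.0696) or wild-type untreated replicate 3 (2.29, adjusted p = 0.0736), and the knockout call without knockout LPS replicate 1 (2.50, adjusted p = 0.0512) or knockout untreated replicate 2 (1.83, adjusted p = 0.0774).

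Ifi209 spread most among the untreated knockout arrays, with 683, 281 and 3120, against 979, 835 and 621 in untreated wild type. Ifi209 with LPS was 2772, 5770 and 415 in wild type and 6499, 4502 and 6552 in the knockout. Wild-type LPS replicate 3 was below every untreated wild-type array, and the wild-type effect of 1.24 (SE 0.91, adjusted p = 0.351) did not pass the test. In the knockout it was 2.77 (SE 0.91, adjusted p = 0.0271), a call lost without knockout LPS replicate 1 (2.69, adjusted p = 0.0648), knockout LPS replicate 3 (2.68, adjusted p = 0.0658), knockout untreated replicate 1 (2.62, adjusted p = 0.0721) or knockout untreated replicate 2 (1.98, adjusted p = 0.103). Zbp1 rose 3.24-fold in wild type and 4.16-fold in the knockout.

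The Mx proteins are dynamin-like GTPases that trap viral components, and many inbred strains, C57BL/6 among them, carry a defective Mx1 allele. Both measured members rose in both genotypes. Mx1 was 95.6, 69.1 and 64.2 in untreated wild type and 587, 2110 and 142 with LPS, and 106, 106 and 326 untreated and 2184, 2869 and 3171 with LPS in the knockout. All knockout arrays of Mx1 were above all wild-type arrays of the same treatment. The knockout was 4.83-fold higher with LPS, which did not pass the test (log2 2.27, SE 0.75, adjusted p = 0.0911). It did without wild-type LPS replicate 2 (3.23, adjusted p = 0.00594), and without replicate 3 the difference was 1.28 (adjusted p = 0.287). Mx2 was 51.5, 38.3 and 33.7 untreated and 482, 1121 and 91.1 with LPS in wild type and 50.9, 37.4 and 139.6 untreated and 1129, 1243 and 1282 with LPS in the knockout. LPS raised Mx2 by 3.18 (SE 0.72, adjusted p = 0.00597) in wild type and 4.24 (SE 0.72, adjusted p = 0.000602) in the knockout, and Mx1 by 2.90 (SE 0.75, adjusted p = 0.0124) and 4.14 (SE 0.75, adjusted p = 0.000926).

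ISG15 is a ubiquitin-like protein that is attached to other proteins, in mice by the ligase HERC6, and removed by USP18, which also dampens signalling at the interferon receptor. Isg15 itself has no value here, and the other 2 members rose in both genotypes. Herc6 was 416, 373 and 334 in untreated wild type and 2555, 4240 and 1193 with LPS, and 476, 348 and 1183 untreated and 4519, 3431 and 4777 with LPS in the knockout. Its treatments separated, by 2.65 (SE 0.46, adjusted p = 0.000964) and 2.85 (SE 0.46, adjusted p = 0.000383). Usp18 was 1000, 1095 and 651 untreated and 6266, 9724 and 1620 with LPS in wild type and 1382, 1193 and 3086 untreated and 8372, 7929 and 9851 with LPS in the knockout. Untreated knockout arrays were all above untreated wild-type arrays for Usp18 (difference 0.94, SE 0.55, adjusted p = 0.671), whereas with LPS the genotypes overlapped. Its LPS effects were 2.37 (SE 0.55, adjusted p = 0.00636) and 2.33 (SE 0.55, adjusted p = 0.0047).

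Parp9, Parp12 and Parp14 encode ADP-ribosyltransferase family proteins, and Dtx3l the ubiquitin ligase that partners PARP9. All 4 rose in both genotypes, by 1.28 to 1.99 in wild type and 1.70 to 2.14 in the knockout. Parp14 was 1437, 1057 and 934 in untreated wild type and 4912, 6041 and 2992 with LPS, and 1093, 1175 and 2065 untreated and 5875, 6425 and 6014 with LPS in the knockout. Parp12 was 1828, 1597 and 1372 untreated and 5136, 6981 and 2305 with LPS in wild type and 1975, 1636 and 3314 untreated and 7280, 6651 and 7511 with LPS in the knockout. For both genes the treatments separated and the genotypes overlapped in each condition.

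Pml, Sp100 and Daxx encode proteins of the nuclear bodies that silence incoming viral genomes. Only Daxx passed the test in wild type, and all 3 did in the knockout. Daxx, a histone chaperone, was 556, 458 and 434 in untreated wild type and 1748, 3024 and 727 with LPS, and 569, 594 and 857 untreated and 3014, 3703 and 3905 with LPS in the knockout. Daxx rose by 1.71 (SE 0.39, adjusted p = 0.00572) in wild type and 2.41 (SE 0.39, adjusted p = 0.000375) in the knockout, and was 2.25-fold higher in the knockout with LPS, which did not pass the test (log2 1.17, SE 0.39, adjusted p = 0.0907). Sp100 was 1259, 966 and 829.7 untreated and 2754, 4283 and 1036 with LPS in wild type, with overlap, and 1206, 982 and 2574 untreated and 4364, 3707 and 4498 with LPS in the knockout, without. Its effects were 1.20 (SE 0.45, adjusted p = 0.071) and 1.53 (SE 0.45, adjusted p = 0.0171), the latter lost without knockout untreated replicate 1 (1.39, adjusted p = 0.0558) or knockout untreated replicate 2 (1.25, adjusted p = 0.0651).

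The membrane and secreted proteins had the lowest median effects of the 12 roles, 0.87 in wild type and 1.22 in the knockout, with 1 of 4 called in wild type and 3 of 4 in the knockout. Rtp4, a chaperone-like protein, was 1164, 797 and 437 in untreated wild type and 3166, 4011 and 1443 with LPS, and 1443, 994 and 2952 untreated and 3901, 4334 and 4368 with LPS in the knockout. The treatments separated in both genotypes, by 1.83 (SE 0.45, adjusted p = 0.00964) and 1.38 (SE 0.45, adjusted p = 0.0276). Its knockout call was lost without knockout LPS replicate 1 (1.43, adjusted p = 0.0516), knockout LPS replicate 2 (1.35, adjusted p = 0.0584), knockout LPS replicate 3 (1.35, adjusted p = 0.0645), knockout untreated replicate 1 (1.29, adjusted p = 0.0743) or knockout untreated replicate 2 (1.02, adjusted p = 0.103). Tor3a, a torsin ATPase, was 1612, 1485 and 1270 untreated and 3178, 4825 and 1179 with LPS in wild type and 1695, 2013 and 2348 untreated and 4566, 5160 and 4963 with LPS in the knockout. Its wild-type arrays overlapped (0.86, SE 0.37, adjusted p = 0.115) and its knockout arrays did not (1.29, SE 0.37, adjusted p = 0.0153), a call lost without knockout untreated replicate 1 (1.17, adjusted p = 0.052). Bst2, the tetherin that holds budding virions, had effects of 0.89 (SE 0.35, adjusted p = 0.0785) and 1.15 (SE 0.35, adjusted p = 0.0183), and Lgals3bp, a secreted glycoprotein, of 0.29 (SE 0.29, adjusted p = 0.502) and 0.29 (SE 0.29, adjusted p = 0.428).

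The remaining measured members, Ifi35, Xaf1, Rnf213 and Helz2, all rose in both genotypes. Xaf1, an apoptosis-promoting factor, was 359, 285 and 222 in untreated wild type and 1651, 2263 and 677 with LPS, and 413, 324 and 885 untreated and 2242, 2418 and 2485 with LPS in the knockout. Its treatments separated, with LPS effects of 2.27 and 2.28 (SE 0.42 for each). Helz2, Rnf213 and Ifi35 rose 3.95-, 3.43- and 2.96-fold in wild type and 4.19-, 3.63- and 3.82-fold in the knockout.

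Without LPS no member was called between genotypes. All 43 differences were towards the knockout, with a median of 0.59 on the log2 scale, but 0 of 43 passed limma's test, against 0.0351% of all genes called higher. At an unadjusted p under 0.05, 4 were higher and 0 lower (9.3%, against 2.79% of all genes higher). For 13 members every untreated knockout array was above every untreated wild-type array (30.2%, against 4.88% of all genes). The largest differences were those of Ifit3 (2.59, SE 1.14, adjusted p = 0.559), Ifi205 (1.50, SE 0.79, adjusted p = 0.633) and Oas3 (1.45, SE 0.69, adjusted p = 0.586). Without untreated knockout replicate 3, the array whose mast cell markers were also highest, the median fell from 0.59 to 0.24. In that fit 38 of 43 differences lay towards the knockout. Untreated wild-type replicate 3 was the lowest of its group for 40 members. Without that array the median was 0.44, with 42 of 43 differences towards the knockout.

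With LPS the members again all lay towards the knockout, with a median difference of 0.86, and 1 of 43 was called (2.33%), against 3.28% of all genes called higher. That member was Ifit3b, and the share of members called was no larger than that of all genes. At an unadjusted p under 0.05, 19 were higher and 0 lower (44.2%, against 8.39% of all genes higher). For 16 members every knockout array was above every wild-type array (37.2%, against 10.3% of all genes), and among these the mean differences of Ifit2, Ifit3b, Ifit3 and Mx1 were the largest. Isg20 was next nearest to the threshold after Ifit2, at 1.60 (SE 0.49, adjusted p = 0.0714), followed by Daxx and Mx1.

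These counts turned on which wild-type array was present. Without wild-type LPS replicate 2, the brightest of its group, 15 members were called higher in the knockout (34.9%, against 3.96% of all genes). They were Adar, Bst2, Cmpk2, Daxx, Ddx60, Ifi35, Ifit2, Ifit3, Ifit3b, Isg20, Mx1, Mx2, Oas3, Pml and Tor3a. Without wild-type LPS replicate 3, the dimmest, Ifit3b alone was called and the median difference was 0.35 in place of 0.86. Oas1b then lay towards wild type. Without both wild-type LPS replicate 3 and untreated knockout replicate 3, Ifit2 and Ifit3b were called. Cd209a was higher on wild-type LPS replicate 3 than on the other LPS arrays, as given above, and its part in the difference was not tested.

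**Figure D4:**
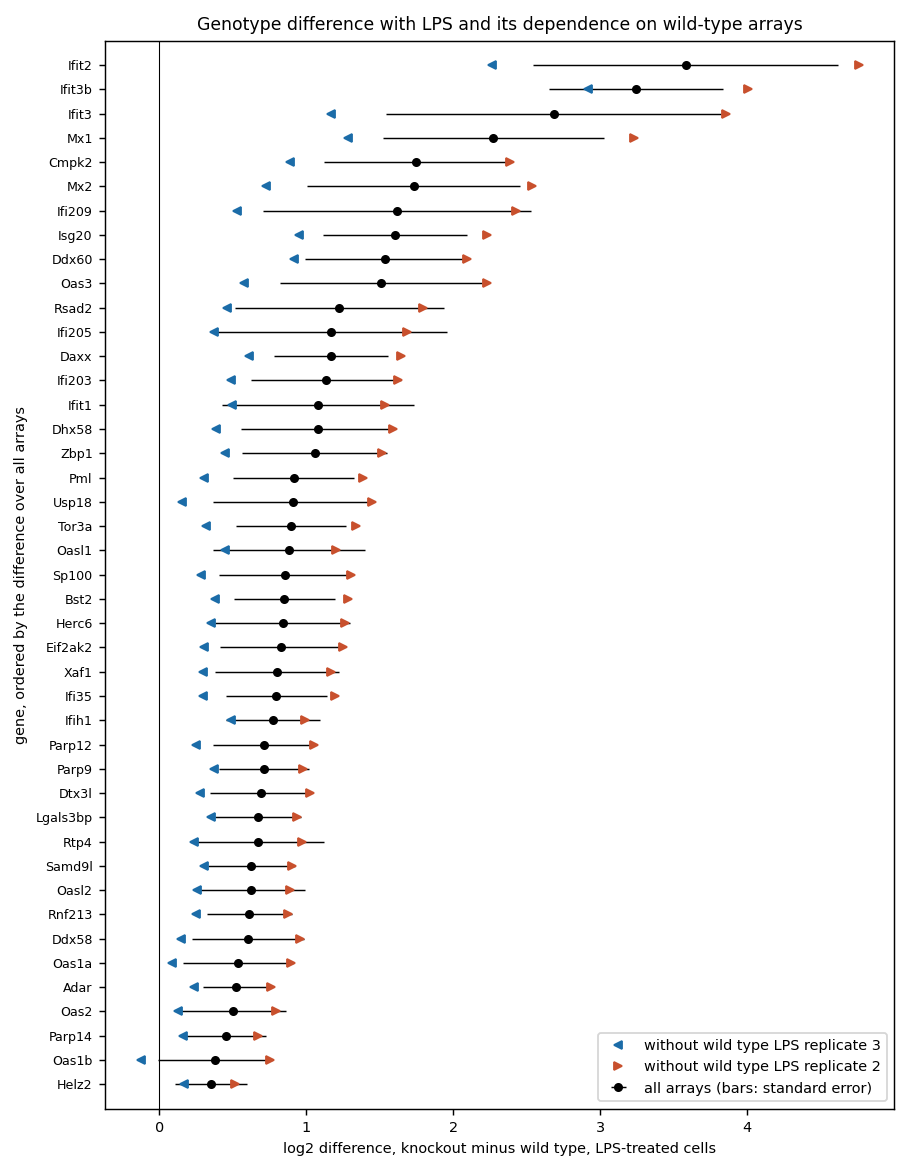
Black points are log2 differences between knockout and wild type in LPS-treated cells for each measured member, with standard errors; triangles are the same differences without wild-type LPS replicate 3 (pointing left) or replicate 2 (pointing right). Leaving out replicate 3 brings the median from 0.86 to 0.35, and leaving out replicate 2 moves the points to the right.

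The question whether LPS acted differently in the 2 genotypes is that of the difference between the LPS effects. No member passed limma's test for it (0 of 43, against 0.301% of all genes called higher), and 1 was higher and 0 lower at an unadjusted p under 0.05, against 6.47% of all genes higher. The median of this difference was 0.27, with 35 of 43 members towards a larger effect in the knockout. It followed single arrays. Without wild-type LPS replicate 3 the median was -0.22, with 11 of 43 towards a larger effect in the knockout, and without untreated knockout replicate 2 it was 0.03. Without wild-type LPS replicate 2 it was 0.69, with 42 of 43 towards the knockout and 1 call, Ifit3b (3.85, adjusted p = 0.0121). Without untreated knockout replicate 3 it was 0.66, and without both that array and wild-type LPS replicate 3 it was 0.15. A larger count of calls in the knockout therefore does not show a stronger response.

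The genes of the loop that feeds the antiviral programme were followed from a list of related genes. Of 19 interferon genes 15 were measured, the Ifna genes among them on probe sets of a family whose sequences are much alike. In wild type 0 of these 15 passed limma's test with LPS, against 9.53% of all genes called higher. At an unadjusted p under 0.05, 1 was higher, against 15.5% of all genes. In the knockout 7 were higher, against 21.9% of all genes. Of these, Ifna14, Ifnab and Ifnk lost their calls in 5, 3 and 2 of 12 fits that left out 1 array. Several of the probe sets are dim. Those of Ifnb1, Ifnk and Ifne lay below the array medians of 110 to 119 over all probe sets on every untreated array. Differences from such values have little precision. With the replicate block on the 6 knockout arrays Ifna14 was not called (0.33, adjusted p = 0.058) and Ifna2 was (0.46, adjusted p = 0.0152). Ifnb1, the interferon-β gene, was 49.9, 43.9 and 44.1 in untreated wild type and 51.1, 84.9 and 56.9 with LPS, and 48.6, 39.4 and 41.3 untreated and 55.8, 129 and 134 with LPS in the knockout. Wild-type LPS replicate 2 and knockout LPS replicates 2 and 3 were the brightest, and the other LPS arrays lay just above the untreated ones. The LPS effect on Ifnb1 was 0.45 (SE 0.29, adjusted p = 0.282) in wild type and 1.20 (SE 0.29, adjusted p = 0.00551) in the knockout, and the genotype difference with LPS, 0.66 (SE 0.29, adjusted p = 0.208), did not pass the test. Without knockout LPS replicate 1 it did (1.07, adjusted p = 0.00748).

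Values are given for 9 STAT and IRF genes. In wild type Stat2 (1.65, SE 0.36, adjusted p = 0.00505) and Irf9 (0.66, SE 0.17, adjusted p = 0.011), both part of ISGF3, rose with LPS. The Irf9 call was lost without wild-type LPS replicate 2 (0.55, adjusted p = 0.0504) or wild-type untreated replicate 3 (0.53, adjusted p = 0.0535). In the knockout 4 rose, Stat2 (1.80), Irf9 (0.60), Irf1 (1.76) and Irf5 (0.64), and 2 fell, Irf3 (-0.57) and Irf8 (-1.04). Of all 19938 genes, 1900 were higher and 3694 lower with LPS in wild type, and 4365 and 4740 in the knockout. The knockout call of Irf9 was lost without knockout untreated replicate 2 (0.46, adjusted p = 0.0513). Irf7, the amplifier of interferon-α production, followed the members from array to array, with 2112, 1583 and 905 in untreated wild type, 4692, 8027 and 1643 with LPS, and 2683, 2434 and 7690 untreated and 7467, 7266 and 9618 with LPS in the knockout. Untreated knockout replicate 3 of Irf7 was thus within the LPS-treated knockout range, and neither LPS effect passed the test (1.45, SE 0.56, adjusted p = 0.0742 and 1.13, SE 0.56, adjusted p = 0.116). With the replicate block on the knockout arrays the latter passed (1.13, adjusted p = 0.00485).

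Genotype differences with LPS were called for 4 of these transcription factors, 3 higher and 1 lower in the knockout. Of all 19938 genes, 653 were called higher (3.28%) and 970 lower. Irf1, which can drive several antiviral genes without ISGF3, was 1679, 1282 and 1251 untreated and 1671, 2638 and 1131 with LPS in wild type and 1678, 1411 and 1948 untreated and 4543, 7170 and 5455 with LPS in the knockout, so it was 3.29-fold higher in the knockout with LPS (1.72, SE 0.27, adjusted p = 0.00303). Irf5 (0.91, SE 0.15, adjusted p = 0.00421) and Irf2 (0.82, SE 0.19, adjusted p = 0.0244) were also higher and Irf3 was lower (-0.48, SE 0.09, adjusted p = 0.00854). The Irf2 call was lost without knockout LPS replicate 3 (0.78, adjusted p = 0.0748), wild-type LPS replicate 1 (0.78, adjusted p = 0.0902) or wild-type LPS replicate 3 (0.61, adjusted p = 0.0893). The calls of Irf1, Irf5 and Irf3 held in 12 of 12 fits that left out 1 array. The difference of LPS effects was called for 0 of the 9 genes, with Irf1 at 1.46 (0.301% of all genes were called higher). Without wild-type LPS replicate 2 it was called for Irf1 (1.77, adjusted p = 0.0174), Irf5 (1.15, adjusted p = 0.00906) and Irf2 (0.90, adjusted p = 0.0425). In that fit 176 of all 19938 genes were called higher and 189 lower.

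Among 9 receptor and kinase genes, Jak2 rose in both genotypes (2.11, SE 0.12, adjusted p = 3.21e-07 and 2.01, SE 0.12, adjusted p = 3.9e-07) and Ifngr1, a subunit of the interferon-γ receptor, fell (-1.23, SE 0.12, adjusted p = 1.47e-05 and -0.74, SE 0.12, adjusted p = 0.000392). With LPS Ifngr2 was lower in the knockout (-0.51, SE 0.09, adjusted p = 0.00485) and the kinase gene Tyk2 higher (0.45, SE 0.11, adjusted p = 0.0266), a call that held in 9 of 12 fits that left out 1 array. In all, 1 of the 9 was higher and 4 were lower with LPS in wild type, and 2 were higher and 2 lower in the knockout. Of all 19938 genes, 1900 were higher and 3694 lower in wild type, and 4365 and 4740 in the knockout (21.9% higher). The 2 higher and 2 lower of 9 in the knockout are thus close to the shares of all genes. The same shares apply to the 8 genes that follow. Of 8 measured genes between TLR4 and interferon, 4 rose in wild type, Cd14, Tbk1, Ikbke and Tank, by 0.55, 0.73, 1.14 and 0.98. In the knockout 3 rose and 3 fell, among the latter Ticam2 (-1.28), which encodes the TRIF-related adaptor TRAM. Mavs, the adaptor of the RNA helicases, fell in both (-0.78, SE 0.11, adjusted p = 0.000227 and -1.28, SE 0.11, adjusted p = 4.1e-06).

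Of 6 genes that restrain interferon signalling, 3 rose and 2 fell in wild type, and 4 rose and 2 fell in the knockout. Of all genes, 9.53% were called higher with LPS in wild type and 21.9% in the knockout. Socs1, which blocks the Janus kinases, rose by 1.43 (SE 0.28, adjusted p = 0.0023) and 1.30 (SE 0.28, adjusted p = 0.00276), and Ptpn2, a phosphatase of STAT proteins, by 0.90 (SE 0.15, adjusted p = 0.00075) and 1.32 (SE 0.15, adjusted p = 2.97e-05). The enzymes that conjugate ISG15 were called 1 of 3 in wild type and 3 of 3 in the knockout. Ube2l6, the conjugating enzyme, was 637, 586 and 579 untreated and 1540, 2881 and 773 with LPS in wild type and 566, 675 and 1223 untreated and 3027, 3089 and 3483 with LPS in the knockout, an LPS effect of 1.33 (SE 0.39, adjusted p = 0.0224) and 2.04 (SE 0.39, adjusted p = 0.0012). The wild-type call was lost without wild-type LPS replicate 1 (1.31, adjusted p = 0.0637), wild-type LPS replicate 2 (0.86, adjusted p = 0.0773), wild-type untreated replicate 1 (1.37, adjusted p = 0.0517), wild-type untreated replicate 2 (1.31, adjusted p = 0.0607) or wild-type untreated replicate 3 (1.30, adjusted p = 0.0651).

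**Figure D5:**
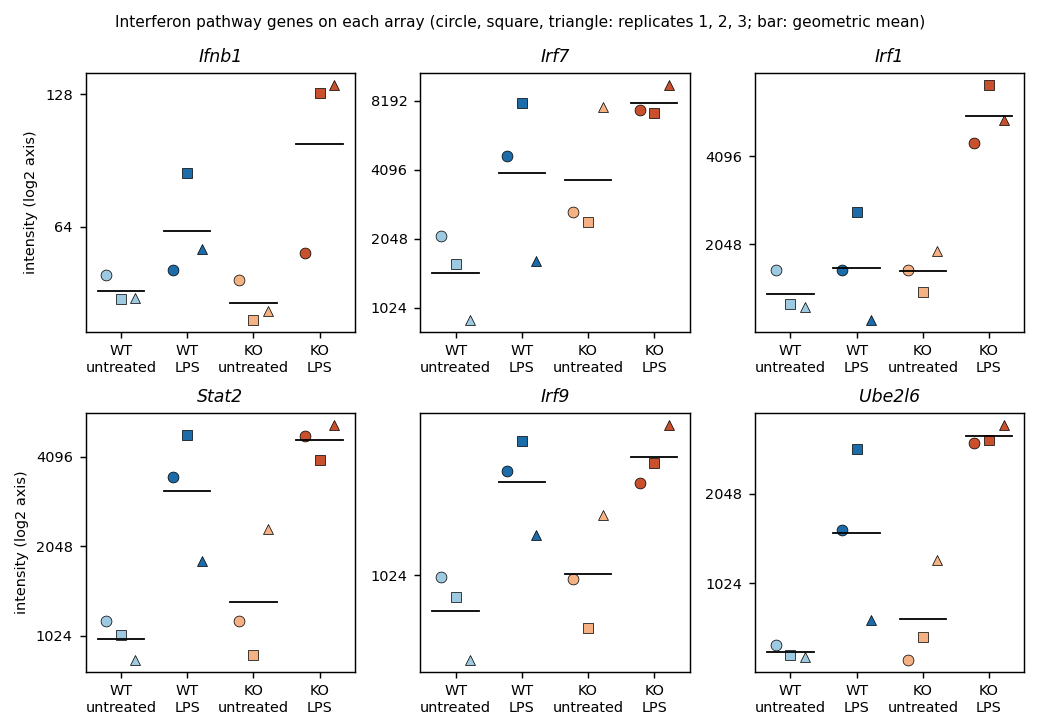
Intensity on each array, on a log2 axis that differs between panels, of Ifnb1, Irf7, Irf1, Stat2, Irf9 and Ube2l6 in wild type (WT) and knockout (KO); symbols are replicates 1 (circle), 2 (square) and 3 (triangle) and bars geometric means. Irf1 is higher on all LPS-treated knockout arrays than on any other array, and in wild type with LPS replicate 2 is the highest and, for each gene but Ifnb1, replicate 3 the lowest.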

How the data were processed

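RMA intensities of 35556 probe sets are linear intensity values that the authors made in Affymetrix Expression Console 1.1 before deposit, as the submitters' processing notes list. RMA corrects background and makes array distributions alike, so a shift of most genes could not be seen. Of the probe sets 21789 carry 1 symbol, 1621 several and 12146 none, and the symbol of 21698 probe sets with 1 symbol was found in the RefSeq table. Intensities were log2-transformed without pseudocount and fitted with limma 3.58.1 in R 4.3.3 (lmFit, eBayes) as 4 group means over 12 arrays (8 residual degrees of freedom). Benjamini-Hochberg adjustment ran over 19938 genes, with calls under 0.05, and the code was tested on simulated data. Members and lists were chosen with earlier results of these data known. Every array was printed, per role, for the member with the largest difference in each pairwise contrast, and for every member called between genotypes. Same-numbered untreated and LPS-treated knockout arrays deviated together over all genes (r = 0.322, 0.568 and 0.459), whereas wild-type ones did not in every case (-0.07, 0.143 and 0.359), so numbers were taken to pair knockout arrays alone. Over the members alone the correlations were 0.237, 0.179 and -0.043 in the knockout and 0.128, 0.384 and 0.377 in wild type, so the pairing rests on all genes and not on the members. No 2 arrays were identical. Promoter windows were RefSeq's on GRCm38.p6. Alternatives covered scaling, pseudocount, dim genes, variance trend, array weights, replicate block, arrays in the fit, probe sets, threshold and leaving out each array.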

Additional observations from a re-analysis of the deposited data

How the results depend on the processing

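Across all alternatives the LPS effects of the members kept a positive median in both genotypes. At an adjusted p under 0.01, 23 members passed in wild type in place of 35 and 31 in the knockout in place of 41, with a variance trend and robust fit 29 and 39 did, and leaving out 1 array in turn gave 25 to 41 in wild type and 34 to 42 in the knockout. With the replicate block over all 12 arrays 33 members were called in wild type, 41 in the knockout and 1 between genotypes with LPS, and the block on the 6 knockout arrays, added after seeing the data, called 43. Of the 5 counts, that between genotypes with LPS, 1 in the report, moved most: it was 2 with centring on the 75th percentile and with dim genes left out (Ifit2 and Isg20, Ifit3b being the member not tested), 6 with array weights, 0 with only the 6 arrays compared, 1 to 15 with 1 array left out, and 2 without both deviating arrays, a setting also added after seeing the data. For the difference of LPS effects it was 1 with array weights and 0 to 1 with 1 array left out, and a fit on only the arrays compared does not apply to it. Centring on the 75th percentile moved the median of all genes from 0.04 to 0.23 in wild type and from 0.07 to 0.35 in the knockout, and the genes higher and lower with LPS from 1900 and 3694 to 8648 and 2510 in wild type and from 4365 and 4740 to 12003 and 2967 in the knockout. Between genotypes with LPS the split went from 653 and 970 to 926 and 719, and with quantile normalization the wild-type split was 2790 and 3049. Under that centring the LPS difference in the knockout changed sign to positive for 3 genes of the related lists, Ifnar2 (0.27), Il10rb (0.23) and Ppia (0.067). In the main fit Ppia was called lower, and Ifnar2 and Il10rb were not called. The centring shifts all genes of an array by the same amount. With 1 to 3 bases allowed between the GAAA parts of the response element, 23 of 36 windows held it, against 9.91% of all genes. The cause of these changes was not tested.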
